A study of Mus musculus with 5 samples.

Results

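Oncostatin M, interleukin 6 and their relatives signal through a small set of cell surface receptors, and 6 of these receptor genes in mouse skin are described here: Osmr, Il6st, Lifr, Il6ra, Il31ra and Il11ra1. Their 6 rows were taken by symbol from a table of 27998 genes, and every UMI (unique molecular identifier, 1 captured RNA molecule) of each was counted by cell class. The cells were live CD45+ cells sorted from the dissected dermis of C57BL/6 mice and sequenced from their 3′ ends on the 10x droplet platform. By its title the study concerns macrophages as a source of oncostatin M, STAT5 in the stem cells of the follicle, and hair growth. There were 5 libraries, 1 per group: P50_Depil5D, in which the label names depilation and 5 days, and skin at P45, P50, P63 and P80, the number being the postnatal day, with no treatment named. The labels name no transgene, sex or number of animals, and do not say whether P50 is the day of depilation or of collection. With 1 library per group no comparison between groups has a test, and intervals cover counting error only.

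Each receptor of this family works as a pair or larger complex that includes a shared signal-transducing chain. Il6st encodes gp130, the chain shared by these complexes other than that for interleukin 31. Osmr encodes the oncostatin M receptor beta chain, which pairs with gp130 to bind oncostatin M and with the Il31ra product to bind interleukin 31. Lifr encodes the leukemia inhibitory factor receptor, also a partner of gp130. Il6ra and Il11ra1 encode the ligand-binding chains for interleukin 6 and interleukin 11, which bring their ligand to gp130. The complexes act through JAK kinases and STAT transcription factors, and induce feedback inhibitors such as Socs3.

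In the mouse genome (mm10, GENCODE vM21) Osmr lies on chromosome 15 from 6813577 to 6874969 on the minus strand, 215644 bases from Lifr at 7090614 to 7197489 on the plus strand. Il6st, on chromosome 13 from 112464070 to 112510086 on the plus strand, is separated by 9811 bases from Il31ra, at 112519898 to 112594360 on the minus strand. Il6ra lies on chromosome 3 from 89864059 to 89913196 on the minus strand, and Il11ra1 on chromosome 4 from 41699989 to 41769474 on the plus strand. All 6 are protein-coding genes, and all 6 matched a RefSeq promoter entry (GRCm38.p6). Il6ra overlaps the antisense gene Gm42809 by 281 bases, with 21 UMIs in all cells, and Il31ra overlaps the pseudogene Gm3226 by 618 bases, so a few reads of either could belong to the neighbour. The 250 bases before the start are shown for Osmr, Il31ra and Il6ra. The first had no UMI in a classed immune cell, the second had the fewest UMIs of the 6, and the third was highest in macrophage-like cells. The windows lie at chr15:6874314-6874563 (minus strand), chr13:112580663-112580912 (minus strand) and chr3:89913197-89913446 (minus strand). Capitals mark a match to the STAT motif TTCNNNGAA, searched with the AP-1 motif TGANTCA on both strands.
Osmr: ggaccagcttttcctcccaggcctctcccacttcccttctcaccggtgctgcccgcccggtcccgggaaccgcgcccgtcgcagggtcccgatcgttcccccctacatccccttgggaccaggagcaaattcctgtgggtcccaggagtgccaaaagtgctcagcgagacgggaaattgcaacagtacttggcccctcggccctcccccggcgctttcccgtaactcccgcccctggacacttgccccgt
Il31ra: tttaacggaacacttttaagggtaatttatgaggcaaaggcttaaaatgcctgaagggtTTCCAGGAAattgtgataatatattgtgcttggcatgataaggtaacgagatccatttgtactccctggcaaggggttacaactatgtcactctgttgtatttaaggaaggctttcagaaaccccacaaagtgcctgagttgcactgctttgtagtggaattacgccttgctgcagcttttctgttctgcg
Il6ra: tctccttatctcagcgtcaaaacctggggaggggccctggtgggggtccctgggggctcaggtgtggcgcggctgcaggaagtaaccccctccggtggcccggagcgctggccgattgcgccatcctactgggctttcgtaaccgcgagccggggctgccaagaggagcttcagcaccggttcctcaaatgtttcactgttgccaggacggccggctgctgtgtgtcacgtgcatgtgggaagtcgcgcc
The Il31ra promoter held 1 STAT match, and neither motif occurred in the other 7 member promoters, which include a second entry each for Lifr and Il11ra1. Among 32851 mouse promoters of the same length, 7.02% held the STAT motif and 6.75% the AP-1 motif. No member window held both motifs, and a match in the letters is not a measured binding site. Each of the RefSeq starts used for Osmr, Lifr, Il31ra and Il11ra1 lies inside the longer span that GENCODE gives the gene, whereas the Il6st and Il6ra windows end just outside theirs.

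The 5 libraries held 6223 barcodes, with a median of 1475 UMIs per barcode in P50_Depil5D and 2543, 1435, 1888 and 1249 UMIs at P45, P50, P63 and P80. After filters 6162 cells remained, and marker genes placed 4709 of them in a class, written below with "-like" where the name rests on the markers alone. Although the sort was for CD45+, 965 cells carried keratinocyte markers, and Ptprc, which encodes CD45, stood at 22.8 CPM (UMIs per 1000000 UMIs of the class) in them and at 511 CPM in T cell-like cells. Barcodes were shared between libraries: P45 shared 0 to 7 with any other library, and the other 4 shared 134 to 193 with each other. Of keratinocyte-like cells 77.2% in P50_Depil5D and 79.5%, 67.9% and 70.4% at P50, P63 and P80 carried a shared barcode, against 0.478% at P45. Of 765 shared pairs with at least 1 keratinocyte-like copy, 717 had both copies in that class. Keratinocyte-like values of the 4 libraries other than P45 are therefore not independent of each other, and neither are sums that include them. Without shared barcodes 410 keratinocyte-like cells remained, with 26.1 CPM of Osmr, 25.7 of Il6st, 45.7 of Lifr, 25.7 of Il6ra, 10.5 of Il31ra and 166 CPM of Il11ra1, against 31.8, 25.7, 43.9, 29.0, 7.60 and 186 CPM over all 965. Among T cell-like cells 0.333% to 12.5% of a library shared a barcode, and among the 39 endothelial-like cells 35.9% did. In such data fewer molecules per cell and a different mix of cells inside a class cannot be told apart.

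With the main gates Osmr was found in non-immune classes and in no immune cell. Its 148 UMIs in classed cells comprised 134 in keratinocyte-like, 10 in endothelial-like, 3 in mural-like and 1 in fibroblast-like cells. None fell in 3632 immune cells, which allows a share of cells with a UMI of up to 0.0826% by the floor of 3 counts and 0.102% by the Clopper-Pearson interval, whereas 11.8% of 1077 non-immune cells had one (95% Clopper-Pearson interval 9.93 to 13.9%). The non-immune level was 42.3 CPM in P50_Depil5D and 21.8, 40.0, 38.8 and 39.9 CPM at P45, P50, P63 and P80, against 0 CPM in the immune cells of each library. Thus no library's non-immune value overlapped the immune values. The 556 cells with markers of more than 1 compartment, which enter neither side, held 40 Osmr UMIs at 14.4 CPM. With such mixed cells kept, or with 1 marker more per gate, some Osmr UMIs fell in lymphoid classes. The absence and the bounds below therefore hold for the main gates only. Against a floor of 3 counts over all immune cells the pooled level was at least 86.1-fold higher, and the exact 95% interval of the pooled ratio began at 69.2. Within single libraries that interval began at 18.9 in P50_Depil5D and at 20.7, 18.1, 4.43 and 1.87 at P45, P50, P63 and P80. On the log2(CPM + 10) scale the mean difference over 5 libraries was 2.20 ± 0.30 (SD, n = 5), higher in 5 of 5, and 2.29 ± 0.42 without shared barcodes, also higher in 5 of 5.

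**Figure D1:**
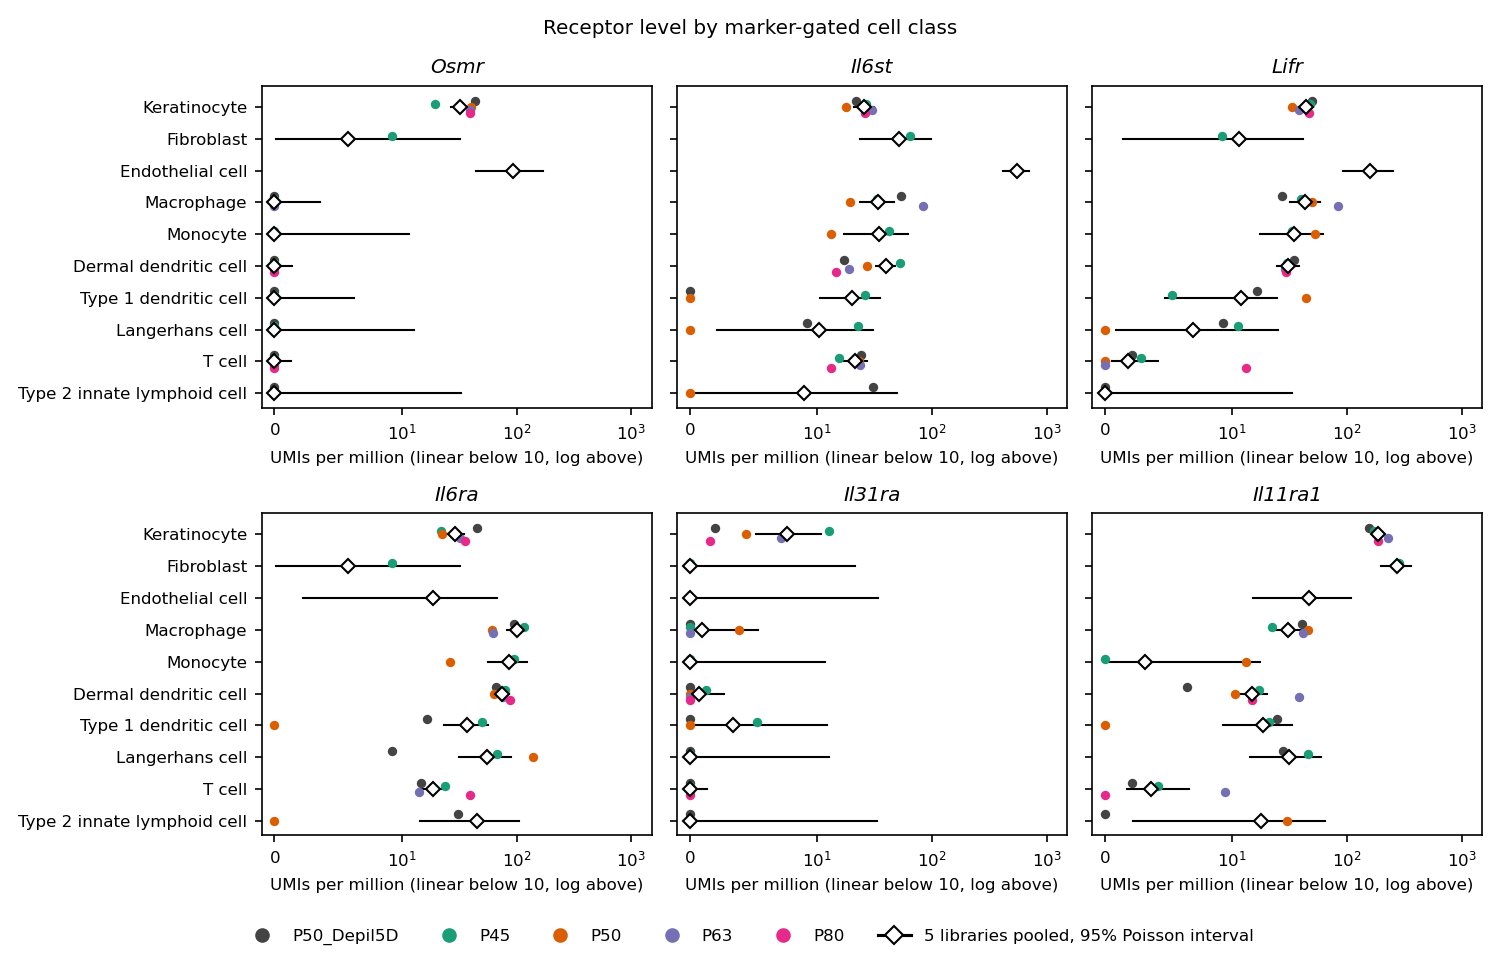
Level of each receptor (x axis, CPM of the class, linear below 10 and log above) in 10 marker-gated classes. Coloured points are libraries with at least 20 cells in the class, and diamonds with lines are the 5 libraries pooled with their 95% Poisson interval. No library had 20 endothelial-like cells, and Osmr is at 0 in every immune class.

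Among classes of at least 20 cells Osmr was highest in endothelial-like cells, at 92.8 CPM (95% Poisson interval 44.5 to 171), ahead of 31.8 CPM (26.7 to 37.7) in keratinocyte-like cells, a ratio of 2.92 (1.37 to 5.53). The 13 mural-like cells had 3 Osmr UMIs, or 82.9 CPM (17.1 to 242). The endothelial-like class had only 39 cells, and 7 of its 10 Osmr UMIs came from 14 cells at P45. Without P45 the levels were 52.9 CPM (10.9 to 155) in endothelial-like and 40.0 CPM (32.6 to 48.6) in keratinocyte-like cells. Fibroblast-like cells followed with 5.74 CPM from 1 UMI, which did not differ from keratinocyte-like cells beyond counting error (keratinocyte-like over fibroblast-like 5.55, 0.979 to 221). With the deepest copy of each shared barcode kept, 565 keratinocyte-like cells gave 31.3 CPM of Osmr.

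The ligand showed the mirror pattern. Osm, which encodes oncostatin M, had 1 UMI in non-immune cells and 141 in immune cells, or 0.220 against 17.8 CPM, and it was lower in the non-immune cells of all 5 libraries. It was highest in monocyte-like cells at 97.8 CPM (66.5 to 139), followed by macrophage-like cells at 48.2 CPM (35.8 to 63.5), and stood at 11.7 CPM in dermal dendritic cell-like and 6.48 CPM in T cell-like cells. The classes with most Osm UMIs thus held no Osmr UMI. The name of the monocyte-like class is weakly held. Of its 115 cells 59 had just the minimum of 3 markers, and 79 came from P45. These cells also had a median of 2 macrophage markers.

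Il6st, the shared chain, had at least 1 UMI in every class with at least 20 cells, though type 2 innate lymphoid cell-like and mature dendritic cell-like cells had no more than a UMI in 1 of 61 and 2 of 30 cells. No class here served as one that should lack Il6st, so expression and free RNA were not separated for it. For comparison, Osmr had no UMI in 3632 immune cells, and Lifr had one in 0.290% of T cell-like cells against 14.1% of keratinocyte-like cells, at median depths of 1346 and 2399 UMIs. Endothelial-like cells stood apart with 548 CPM (417 to 706), against 51.6 CPM (23.6 to 98.0) in fibroblast-like cells, a ratio of 10.6 (5.23 to 24.3). By library the endothelial-like level was 134 CPM in P50_Depil5D and 647, 228, 644 and 0 CPM at P45, P50, P63 and P80, from 1, 33, 3, 22 and 0 UMIs. The other classes lay lower. Dermal dendritic cell-like cells had 39.7 CPM, monocyte-like 34.7, macrophage-like 33.7, keratinocyte-like 25.7 and T cell-like 21.2 CPM. No neighbours in the order of classes below endothelial-like cells differed beyond counting error, and classes further apart were not compared. Of the 105 dermal dendritic cell-like UMIs 81 came from P45, at 53.1 CPM. That class was at 17.1 CPM in P50_Depil5D and 27.3, 19.1 and 14.7 CPM at P50, P63 and P80. Pooled over classes the level was 40.1 CPM in non-immune against 28.9 CPM in immune cells. The mean log2 difference was 0.34 ± 0.21 (SD, n = 5), positive in 5 of 5 libraries, and each library's own ratio interval included 1. Endothelial-like cells held 59 of the 182 non-immune UMIs. Without them the pooled levels were 27.8 CPM in non-immune and 28.9 CPM in immune cells, a ratio of 0.960 (0.765 to 1.20), and the libraries averaged 0.06 ± 0.27 log2 units, with 3 of 5 above 0. Without shared barcodes they averaged 0.35 ± 0.64, with 4 of 5 above 0.

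Lifr was high in endothelial-like cells, at 158 CPM (91.9 to 253), and near-absent in T cell-like cells, at 1.80 CPM (0.585 to 4.20). Between them lay keratinocyte-like cells with 43.9 CPM, macrophage-like with 43.4, monocyte-like with 34.7 and dermal dendritic cell-like with 30.6 CPM, which neighbours in the order did not separate. The next class down, type 1 dendritic cell-like cells, had 11.8 CPM, a gap of 2.59 times (1.20 to 6.65) from dermal dendritic cell-like cells. The myeloid level was 26.2 CPM in P50_Depil5D and 28.0, 35.3, 33.0 and 28.3 CPM at P45, P50, P63 and P80. The lymphoid level in the same libraries was 2.03 CPM and 2.56, 0, 0 and 12.4 CPM, so myeloid and lymphoid values did not overlap. The lymphoid value at P80 rests on 1 UMI. The myeloid over lymphoid difference averaged 1.65 ± 0.56 log2 units (SD, n = 5), and non-immune over immune averaged 0.96 ± 0.27, each higher in 5 of 5 libraries. Without shared barcodes these were 1.66 ± 0.57 and 0.99 ± 0.45, again higher in 5 of 5.

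Il6ra was highest in some of the myeloid classes. Macrophage-like cells had 100 CPM (81.9 to 121), monocyte-like 85.2, dermal dendritic cell-like 73.8 and Langerhans cell-like 55.5 CPM, and adjacent values in this order were not separated by counting error. Next came a lymphoid class, type 2 innate lymphoid cell-like cells, at 44.8 CPM from 5 UMIs. Type 1 dendritic cell-like cells had 37.1 CPM and mature dendritic cell-like cells 34.8 CPM. The latter did not differ from keratinocyte-like cells beyond counting error (1.20, 0.245 to 3.60). Keratinocyte-like cells, at 29.0 CPM, were above T cell-like cells, at 18.7 CPM, by a ratio of 1.55 (1.11 to 2.18). The share of macrophage-like cells with a UMI was 18.5%, and 9.51% after each cell was thinned to 1000 UMIs. The non-immune level was 42.3 CPM in P50_Depil5D and 20.7, 20, 31.0 and 35.1 CPM at P45, P50, P63 and P80. Immune cells of those libraries had 33.6 CPM and 70.8, 39.3, 40.8 and 80.5 CPM. Il6ra was therefore lower in non-immune cells at all 4 ages and higher in P50_Depil5D, and the mean log2 difference was −0.63 ± 0.64 (SD, n = 5; exact sign-flip p = 0.125). The ratio was 1.26 (0.743 to 2.07) in P50_Depil5D and 0.761 (0.414 to 1.44) at P63, intervals that include 1. Without shared barcodes the mean was −0.59 ± 0.72, lower in 3 of 5 libraries. The immune cells also differed in make-up: T cell-like cells were 648 of 976 in P50_Depil5D and 300 of 1332 at P45, and macrophage-like cells 34 and 249 of them. The part of that make-up in the Il6ra contrast was not tested. Myeloid over lymphoid gave 1.37 ± 0.31, higher in 5 of 5 libraries.

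**Figure D2:**
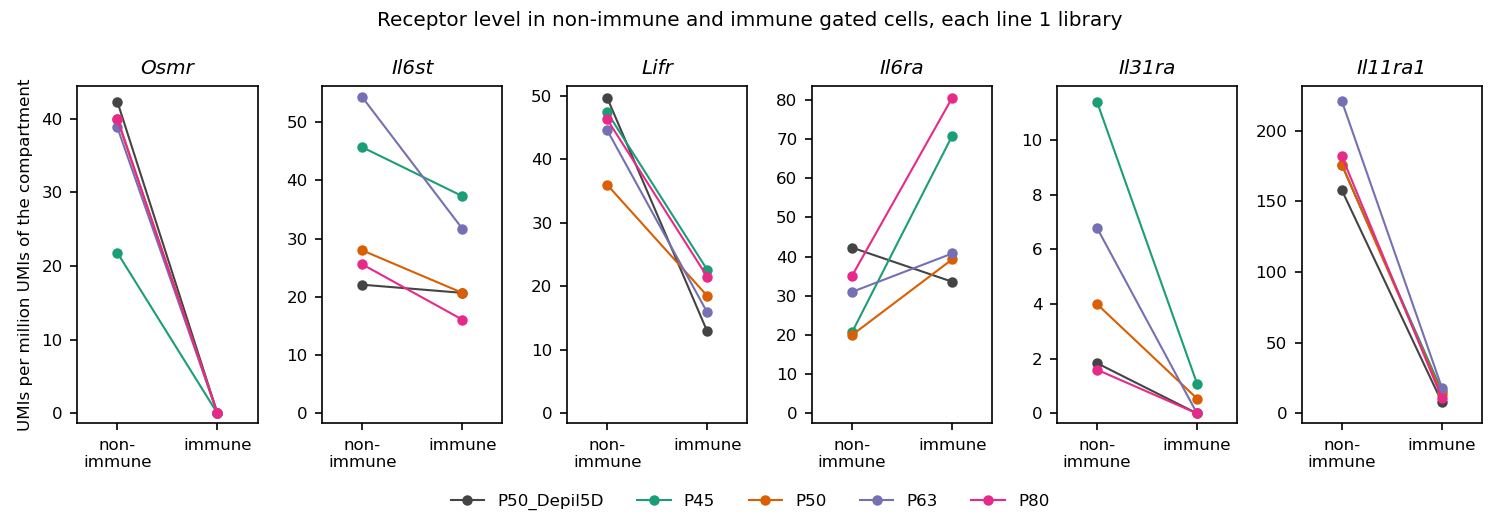
Level of each receptor (y axis, CPM) in non-immune and immune gated cells, with 1 line per library. Lines for Osmr and Il11ra1 fall steeply toward immune cells in all 5 libraries, and for Il6ra 4 lines climb and that of P50_Depil5D falls.

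Il31ra was rare. It had 37 UMIs in classed cells, 32 of them in keratinocyte-like cells at 7.60 CPM (5.20 to 10.7), and 21 of these came from P45. By library the keratinocyte-like level was 1.96 CPM in P50_Depil5D and 12.6, 4.45, 7.19 and 1.62 CPM at P45, P50, P63 and P80. T cell-like, monocyte-like and endothelial-like cells had no UMI, and immune cells together had 5. With no UMI the Poisson interval ends at 11.6 CPM in monocyte-like and 34.2 CPM in endothelial-like cells, above the keratinocyte-like level. Type 1 dendritic cell-like cells had 3.38 CPM from 2 UMIs. Keratinocyte-like cells were not separated from them (ratio 2.25, 0.574 to 19.4).

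Among classes of at least 20 cells Il11ra1 was highest in fibroblast-like cells, at 270 CPM (198 to 359), and then in keratinocyte-like cells, at 186 CPM (173 to 199), a ratio of 1.45 (1.06 to 1.95). Of its 47 fibroblast-like UMIs 31 came from P45. The 13 mural-like cells had 138 CPM (44.9 to 322) from 5 UMIs. Endothelial-like cells had 46.4 CPM, macrophage-like cells had 30.8, dermal dendritic cell-like 14.8 and T cell-like 3.60 CPM. The non-immune level was 158 CPM in P50_Depil5D and 176, 176, 221 and 182 CPM at P45, P50, P63 and P80, against immune levels of 7.84 CPM and 15.8, 13.6, 18.1 and 10.7 CPM. The groups did not overlap, and the mean log2 difference was 3.06 ± 0.16 (SD, n = 5), or 2.78 ± 0.23 without shared barcodes. Its counts are uncertain in 2 ways. The annotated gene overlaps Rpp25l, Dctn3, Arid3c and Galt, and by 8 bases the end of Ccl27a, a keratinocyte chemokine on the opposite strand. The table also has 3 rows for the near-copy Il11ra2, each without a UMI, and whether the counting used strand is not stated. Gm13305, looked up with these overlapping and copied genes, did have counts. It had 926 UMIs in keratinocyte-like cells, or 220 CPM, where Il11ra1 had 782, and was at 34.4 CPM in fibroblast-like cells. How reads were split between Gm13305 and Il11ra1 was not tested. Ccl27a stood at 6654 CPM in keratinocyte-like and 51.6 CPM in fibroblast-like cells.

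Over the 6 receptors and both contrasts, 12 exact two-sided sign-flip tests were made across the 5 libraries. With 5 libraries the exact test cannot go below p = 0.063, which is what Osmr, Il6st, Lifr, Il31ra and Il11ra1 reached for non-immune over immune and Lifr, Il6ra and Il11ra1 for myeloid over lymphoid. The Benjamini-Hochberg value of these exact tests over the 12 was 0.0938 for each, so none passed 0.05. These SDs, counts of libraries and p-values treat the 5 libraries as independent, which the 4 that share barcodes are not. Without shared barcodes the exact sign-flip p was 0.312 for Il6st and 0.250 for Il31ra, which was then higher in 3 of 5 libraries, and the other 6 of these contrasts again gave 0.063. By a rule of at least 2-fold higher in non-immune cells of all 5 libraries, Osmr and Il11ra1 were called, 2 of 6 members, where 4.39% of 13421 genes were. None of the 6 was 2-fold lower in all 5, against 4.43% of those genes. For myeloid over lymphoid 4 members had enough UMIs, and 0 of 4 passed in either direction, against 2.81% of 11669 genes higher and 3.40% lower.

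Within keratinocyte-like cells, sub-gates for basal (597 cells), suprabasal (45), upper follicle (92) and bulge and germ cells (42) showed receptors with opposite layering. Il6ra was highest in suprabasal cells, at 148 CPM (87.5 to 233), against 34.3 CPM (27.2 to 42.6) in basal cells, a ratio of 4.31 (2.43 to 7.24). It had no UMI in 92 upper follicle cells, for which the Poisson interval ends at 8.34 CPM, or in 42 bulge and germ cells, for which it ends at 36.8 CPM. Suprabasal Il6ra UMIs came from every library, 2 in P50_Depil5D and 5, 5, 4 and 2 at P45, P50, P63 and P80. Only 8 of these 18 UMIs remained without shared barcodes, so the libraries other than P45 are not independent here. With the deepest copy of each barcode the suprabasal over basal ratio was 3.30 (1.57 to 6.31), without shared barcodes 3.74 (1.49 to 8.26), and at P45 alone, where barcodes are hardly shared, 4.11 (1.18 to 11.8).

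Il11ra1 had the reverse order. Basal, upper follicle and bulge and germ cells had 195, 206 and 200 CPM, against 16.4 CPM (1.99 to 59.2) from 2 UMIs in suprabasal cells, and basal exceeded suprabasal cells 11.9-fold (3.27 to 98.3). Without shared barcodes there were 211 UMIs in basal and none in suprabasal cells, and at P45 alone 155 and none. Ccl27a moved in the same direction, with 6305 CPM in basal and 771 CPM in suprabasal cells. So did Gm13305, with 243 and 16.4 CPM. The part of either gene in the Il11ra1 counts was not tested. Basal over upper follicle Il11ra1 was 2.17 (1.15 to 4.61) at P45 alone and 1.51 (0.963 to 2.49) without shared barcodes. In the 4 libraries other than P45 upper follicle over basal was 1.25 (0.968 to 1.61). Lifr was at 45.3 CPM in basal and 65.5 CPM in upper follicle cells and had no UMI in the 45 suprabasal cells (upper limit 30.2 CPM). The lower bound of the basal over suprabasal ratio was 1.47, 1.09 without shared barcodes and 0.910 at P45 alone.

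Osmr and Il6st did not separate these layers. Osmr was at 35.5 CPM in basal, 31.6 CPM in upper follicle, 29.9 CPM in bulge and germ and 24.6 CPM in suprabasal cells, and every interval between a pair with at least 10 UMIs included 1. Il6st lay between 24.5 and 41.0 CPM in the same sub-gates, again with every such interval including 1. Il31ra, by contrast, had 7 UMIs in 6 of 42 bulge and germ cells, at 69.9 CPM (28.1 to 144), against 9.31 CPM (5.83 to 14.1) in basal cells, a ratio of 7.51 (2.71 to 18.2). Each library had at least 1 of these UMIs, but only 4 of the 7 remained without shared barcodes, and 3 came from P45. The ratio was 4.93 (1.46 to 13.3) with the deepest copies. It was 3.46 (0.847 to 10.6) without shared barcodes and 2.48 (0.466 to 8.58) at P45 alone, both intervals that include 1. The bulge and germ markers include Cd34, Lgr5 and Sox9, known from hair follicle stem and progenitor cells.

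**Figure D3:**
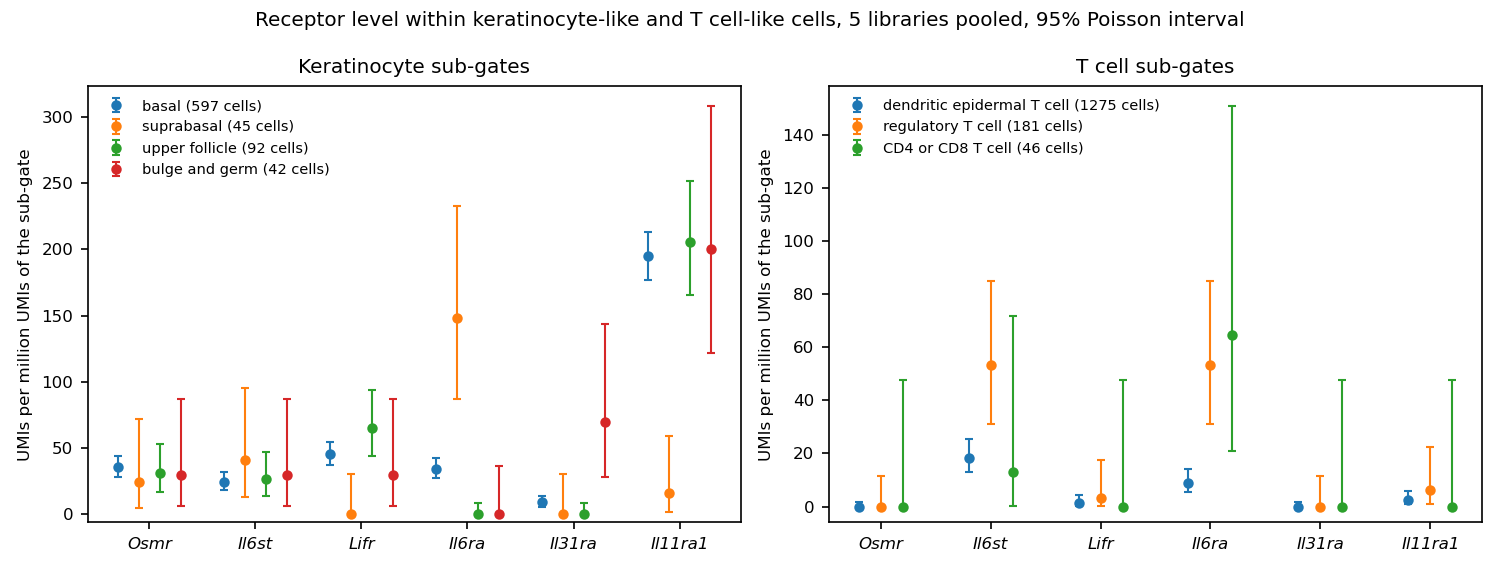
Level of the 6 receptors (y axis, CPM of the sub-gate) in sub-gates of keratinocyte-like (left) and T cell-like cells (right), with 5 libraries pooled and 95% Poisson intervals. Il6ra peaks at 148 CPM in suprabasal cells, where Il11ra1 is at 16.4 CPM, and Il6st and Il6ra are both at 53.2 CPM in regulatory T cells.

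Among T cell-like cells, those with regulatory T cell markers (181 cells) had more Il6st and Il6ra than those with markers of dendritic epidermal T cells, the resident gamma-delta T cells of mouse epidermis (1275 cells). Il6st was at 53.2 CPM (31.0 to 85.2) in the regulatory and 18.3 CPM (12.9 to 25.3) in the dendritic epidermal sub-gate, a ratio of 2.90 (1.53 to 5.28). Il6ra was at 53.2 CPM in the regulatory and 8.92 CPM (5.29 to 14.1) in the dendritic epidermal sub-gate, a ratio of 5.96 (2.89 to 12.3). That ratio was 10.5 (4.25 to 27.6) in the 4 libraries other than P45 and 1.71 (0.298 to 6.86) at P45 alone, and no regulatory cell at P63 or P80 had an Il6ra UMI. Cells with Cd4 or Cd8 markers (46 cells) had 64.6 CPM of Il6ra from 5 UMIs. None of the T cell sub-gates had an Osmr or Il31ra UMI.

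Between P50_Depil5D and P50, 14 pairs of receptor and class had at least 10 UMIs, and 1 of the 14 ratios had an interval that excluded 1, where 9.57% of 28704 pairs of any gene and class did. In keratinocyte-like cells the ratio was 1.08 (0.552 to 2.13) for Osmr, 1.21 (0.444 to 3.47) for Il6st, 1.47 (0.745 to 3.0) for Lifr, 2.03 (0.929 to 4.78) for Il6ra and 0.871 (0.630 to 1.20) for Il11ra1. These intervals do not show that levels were alike, since a 2-fold difference lies inside all but that of Il11ra1. Most of these cells carried a shared barcode, 129 of 167 in P50_Depil5D and 132 of 166 at P50. Of those copies 1 and 0 were the deepest of their barcode. Without shared barcodes 38 and 34 cells remained. Osmr was then at 45.5 CPM from 10 UMIs in P50_Depil5D and 43.7 CPM from 9 at P50. Il6ra was at 45.5 CPM from 10 UMIs and 24.3 CPM from 5. The 1 interval that excluded 1 was that of Il6ra in Langerhans cell-like cells, the dendritic cells of the epidermis. They had 9.23 CPM in P50_Depil5D against 139 CPM at P50, a ratio of 0.0666 (0.00152 to 0.480). It rests on 1 UMI in 39 cells against 9 UMIs in 6 of 21 cells, and the ratio was 0.437 (0.148 to 1.18) when cells that pass gates of 2 compartments were kept. Of 1943 genes in Langerhans cell-like cells, 11.8% had such an interval. No member in keratinocyte-like (0 of 5), T cell-like (0 of 2), dermal dendritic cell-like (0 of 3) or macrophage-like cells (0 of 3) differed 2-fold on the log2(CPM + 10) scale, where 2.17%, 0.785%, 4.47% and 19.9% of genes in those classes did.

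Across age, Osmr in keratinocyte-like cells was lower at P45 than in every other library. It stood at 43.2 CPM in P50_Depil5D and at 19.3, 40.1, 39.0 and 38.9 CPM at P45, P50, P63 and P80, from 22 UMIs in P50_Depil5D and 32, 18, 38 and 24 UMIs at the 4 ages. The ratios were 2.08 (1.10 to 3.82) for P50 over P45, 2.03 (1.23 to 3.35) for P63 over P45 and 2.02 (1.14 to 3.54) for P80 over P45. In that class 13.2%, 19.3% and 17.4% of all genes with at least 10 UMIs had an interval that excluded 1 for P50, P63 and P80 over P45. Without cells with a shared barcode the levels were 45.5 CPM in P50_Depil5D and 19.3, 43.7, 37.2 and 50.4 CPM at the 4 ages, again lowest at P45, but from 9, 5 and 4 UMIs at P50, P63 and P80. The ratios over P45 were then 2.26 (0.95 to 4.85) for P50, 1.92 (0.585 to 4.97) for P63 and 2.61 (0.671 to 7.36) for P80, and all 3 intervals include 1. With the deepest copy of each barcode they were 2.27 (0.953 to 4.87) for P50, 2.10 (1.26 to 3.5) for P63 and 2.14 (1.15 to 3.89) for P80. In basal cells alone Osmr was at 41.5 CPM in P50_Depil5D and 19.7, 54.7, 41.0 and 44.3 CPM at the 4 ages. Depth differed too: keratinocyte-like cells of the other 4 libraries together had a median of 2036 UMIs, against 4598 at P45. After thinning to 1000 UMIs, 6.71% of cells had an Osmr UMI in P50_Depil5D and 2.39%, 3.76%, 1.04% and 5.59% at P45, P50, P63 and P80, so the share at P63 did not follow the level. The part of depth and of the shared barcodes in the difference was not tested.

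Over P45 there were 24 pairs of receptor and class for P50, 23 for P63 and 17 for P80, and 7 ratios had an interval that excluded 1, 3 of them those of Osmr. That was 3 of 24, 2 of 23 and 2 of 17, where 15.3%, 11.6% and 9.44% of all pairs of gene and class did, so the members' counts do not stand out. Il31ra in keratinocyte-like cells was 0.128 (0.00310 to 0.798) for P80 over P45, from 1 against 21 UMIs, and with the deepest copies 0.172 (0.00415 to 1.07). Il11ra1 in the same class was 1.33 (1.11 to 1.59) for P63 over P45, and 1.08 (0.687 to 1.63) without shared barcodes. Without shared barcodes Il31ra had no UMI at P80 (ratio interval 0 to 4.01). Il6ra in macrophage-like cells was 61.4 CPM at P50 against 115 CPM at P45, a ratio of 0.533 (0.290 to 0.925), and Il6st in dermal dendritic cell-like cells was 27.3 CPM at P50 against 53.1 CPM at P45, a ratio of 0.513 (0.262 to 0.928), or 0.588 (0.255 to 1.21) with 1 marker more per gate. Among all genes 12.9% in macrophage-like and 15.0% in dermal dendritic cell-like cells had such an interval for P50 over P45. Macrophage-like Il6ra was 62.2 CPM at P63 and 242 CPM, from 5 UMIs in 19 cells, at P80. Dermal dendritic cell-like Il6st was 19.1 CPM at P63 and 14.7 CPM at P80, from 2 and 1 UMIs. For P80 over P45, members past 2-fold were 0 of 6 in keratinocyte-like cells, 0 of 2 in T cell-like, 1 of 4 in dermal dendritic cell-like (Il6st) and 1 of 4 in macrophage-like cells (Il6ra). Over all genes those shares were 3.69%, 24.3%, 25.9% and 60.8%, so the members' counts do not stand out from the background.

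**Figure D4:**
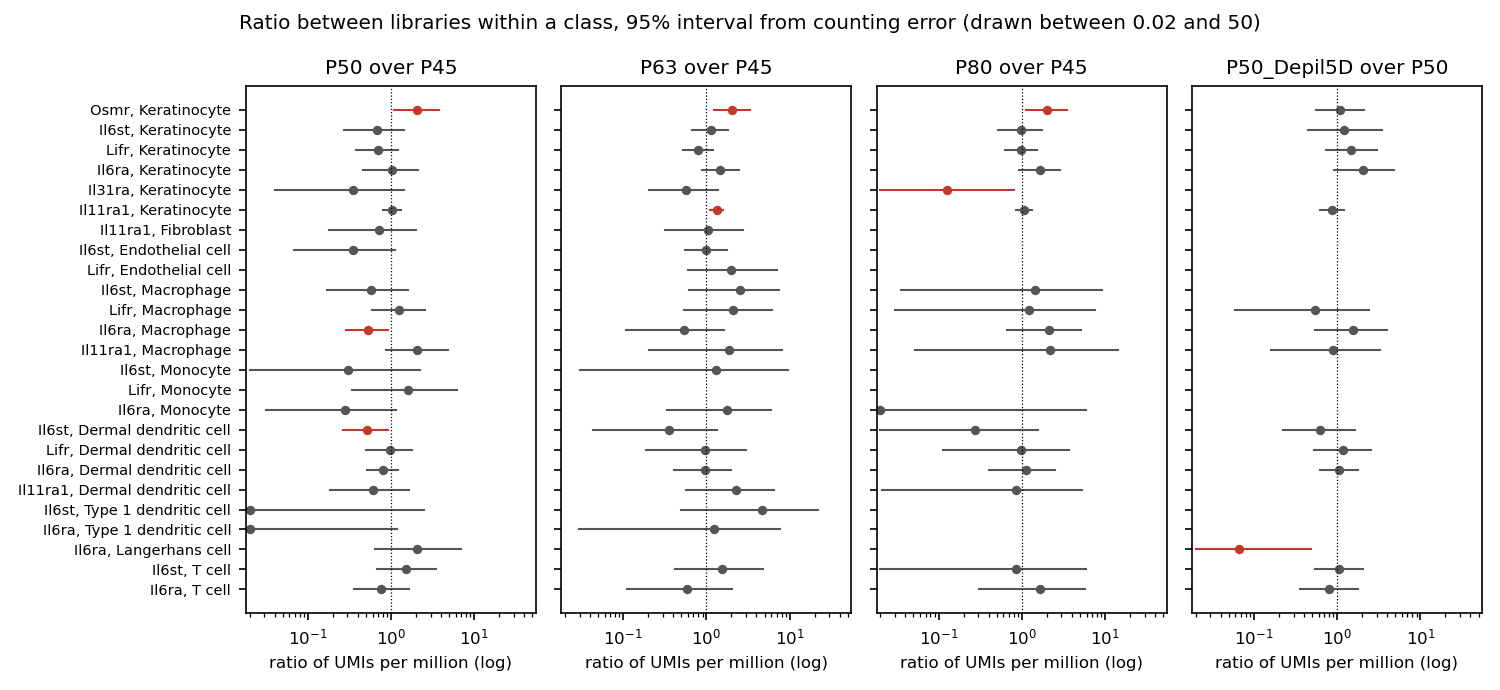
Ratio of CPM between libraries within a class (x axis, log scale) with 95% intervals from counting error, for pairs with at least 10 UMIs. Red marks intervals that exclude 1, and ratios of 0 are drawn at 0.02. Osmr in keratinocyte-like cells lies between 2.02 and 2.08 for P50, P63 and P80 over P45 and at 1.08 for P50_Depil5D over P50, with shared barcodes included.

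Few cells had both chains of a complex detected. In keratinocyte-like cells 22.6% of the 115 cells with an Osmr UMI also had Il6st, against 8.0% of the 850 without, but their median depths were 4907 and 2246 UMIs. After thinning the shares were 9.68% of 31 cells (2.04 to 25.8%) against 1.97% of 814 (1.13 to 3.17%). Osmr and Il31ra, the interleukin 31 receptor pair, were found together in 4 keratinocyte-like cells and, after thinning, in none. In regulatory T cells 30.0% of 10 thinned cells with Il6ra had Il6st (6.67 to 65.2%), against 1.38% of 145 without (0.167 to 4.89%). In dermal dendritic cell-like cells the thinned shares of Il6st were 4.62% with and 4.05% without Il6ra. At least 1 of the 6 receptors was detected in 55.6% of keratinocyte-like, 74.4% of endothelial-like, 35.2% of macrophage-like and 6.67% of T cell-like cells, at median depths of 2399, 2372, 2088 and 1346 UMIs.

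Of the other genes of the pathway, 21 of 24 listed had at least 10 UMIs for non-immune over immune and 18 for myeloid over lymphoid. Among ligands and classes of at least 20 cells, Il6 was highest in endothelial-like cells at 761 CPM (605 to 945), the class highest in Il6st. It was at 40.2 CPM in fibroblast-like and 0.95 CPM in keratinocyte-like cells. Few cells carried it: the 107 non-immune Il6 UMIs lay in 28 of 1077 cells, with 51 UMIs in 7 cells at P63. The interval does not cover that spread between cells. Ctf1, encoding cardiotrophin 1, had 50 of 51 UMIs in keratinocyte-like cells, and Clcf1, a ligand of the ciliary neurotrophic factor receptor, was highest in T cell-like cells at 61.6 CPM. Il11 had 20 UMIs, while Il31 and Cntf had none and Lif had 15. Of the other receptors, Cntfr (34 UMIs) had all its UMIs in non-immune cells. Crlf2, a chain of the thymic stromal lymphopoietin receptor, was at 8.60 CPM in non-immune against 97.5 CPM in immune cells, and Il27ra at 0.441 against 9.72 CPM.

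Downstream of the receptors, Stat3 was at 118 CPM in non-immune against 70.6 CPM in immune cells, and Socs3 at 357 against 147 CPM, each higher in 5 of 5 libraries. Stat5a was at 17.4 against 24.1 CPM, Stat5b at 7.27 against 14.9, Jak1 at 87.1 against 97.2, Jak2 at 15.9 against 34.7 and Tyk2 at 8.16 against 21.2 CPM. Cish, a STAT5 target, was at 42.3 against 42.9 CPM, Socs1 at 13 against 43.4 and the phosphatase gene Ptpn11 at 24.9 against 28.9 CPM. By the rule of 2-fold in all 5 libraries, 2 of the 21, Osm and Crlf2, were lower in non-immune cells and 0 higher, where 4.43% of genes were lower and 4.39% higher. Ptprc, the gene of the sort, was lower as well. In myeloid against lymphoid cells 4 of the 18, Clcf1 (7.24 against 59.8 CPM), Il27ra (2.61 against 21.7), Jak1 (61.9 against 157) and Socs1 (11.1 against 98.1), were lower and 0 higher, where 3.40% of genes were lower and 2.81% higher.

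**Figure D5:**
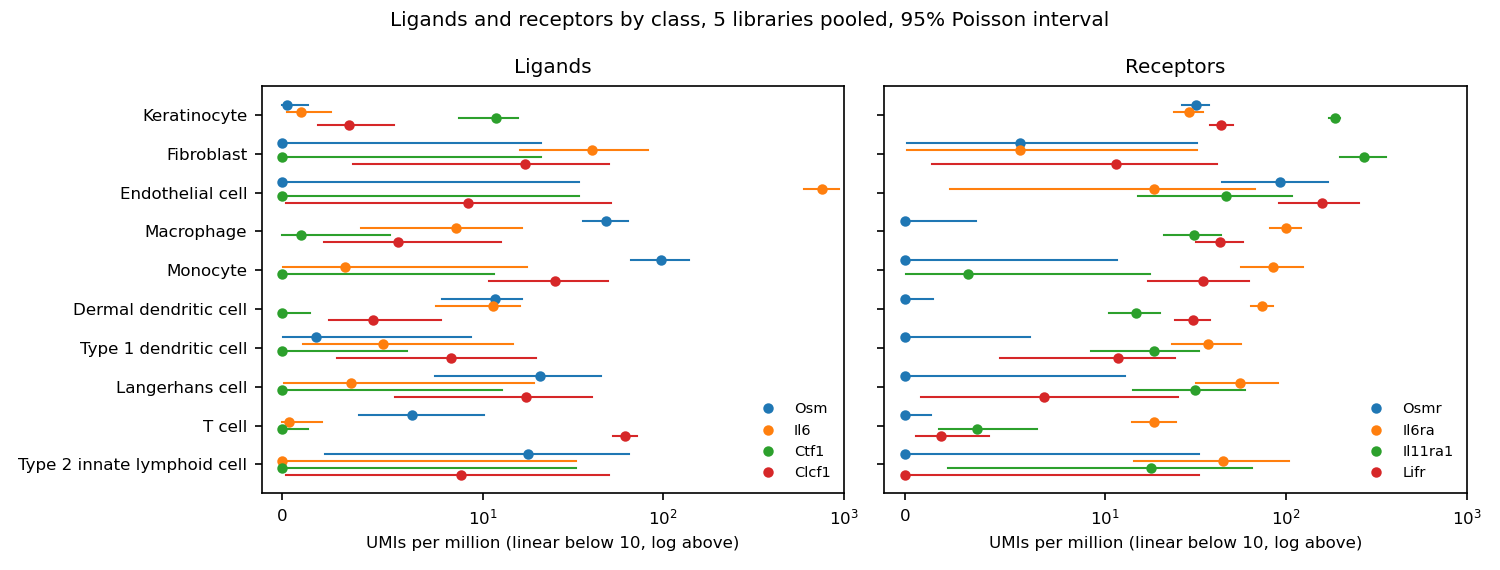
Level (x axis, CPM, linear below 10 and log above) of 4 ligand genes (left) and 4 receptor genes (right) by class, with 5 libraries pooled and 95% Poisson intervals. Osm is highest in monocyte-like and macrophage-like cells, where Osmr is at 0, and Il6 is highest in endothelial-like cells.

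Genes most like each receptor were sought over 30 sums of class and library, by Pearson's r of log2(CPM + 10) among 7999 genes. Osmr was most like Ctnnal1, Gpha2 and Il33 (r = 0.99 each), Il11ra1 most like Ndufa4l2, Cpne8 (0.87 each) and Frmd6 (0.86), and Il31ra most like Clic3 (0.84), Pthlh and Adgrg6 (0.82 each). Lifr was most like Ifitm3 (0.84), Zfp385a (0.83) and Aldh2 (0.81), Il6ra most like Acer3 (0.76), Sft2d2 and Marcksl1 (0.72 each), and Il6st most like Clec2d (0.71), Toporsos and Hgsnat (0.69 each). Among the members, Osmr and Il11ra1 had r = 0.79, Osmr and Il31ra 0.61, and Osmr and Il6ra −0.12. The points share libraries, and the keratinocyte-like sums of 4 libraries share barcodes. Of the non-immune classes only keratinocyte-like cells of each library and fibroblast-like cells at P45 had a sum. Endothelial-like cells had none, and Osmr was at 0 in every immune sum. The r values of Osmr therefore mostly follow the difference between keratinocyte-like and immune sums.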

How the data were processed

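Droplet 3′ libraries were counted on mm10, and Seurat was used with no version given, per the submitters' processing notes. For the aligner, the annotation and the use of strand, the sources used here give nothing. The deposited matrices hold raw UMI counts per gene and barcode, with no normalization by the authors. Barcodes were kept from 200 genes up and to a mitochondrial share of 10%, and 61 were dropped. Each cell was placed in 1 of 17 classes by its share of detected markers, with at least 3 markers, or 2 for short lists, and a lead of 2 times over any other compartment. Cells without that lead (556, mixed), with no gate (833) or tied (64) were left out of the levels. Not every doublet is removed by this. Cells stayed in where the second compartment missed its marker minimum or the lead of 2 times held. Doublets within a compartment were not looked for by the gates. Macrophage-like cells kept a mean of 0.614 fibroblast markers, and 7.67% of keratinocyte-like cells had a Ptprc UMI. Scrublet marked 21 of 6162 cells, too few to serve as a doublet filter. Near the limit, 431 of 927 dermal dendritic cell-like, 221 of 1724 T cell-like, 50 of 443 macrophage-like and 35 of 965 keratinocyte-like cells had just the minimum number of markers. So had 59 of 115 monocyte-like, 60 of 198 type 1 dendritic cell-like and 51 of 61 type 2 innate lymphoid cell-like cells. Keratinocyte-like cells had a median of 8 keratinocyte markers and 0 of each other class except 1 of type 2 innate lymphoid cells. Macrophage-like cells had a median of 6 of their own and 2 dermal dendritic cell markers.

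Levels are summed UMIs per 1000000 UMIs of the class (CPM) with exact Poisson 95% intervals. Shares have Clopper-Pearson intervals, also after thinning to 1000 or 500 UMIs. Ratios have exact conditional intervals, for at least 10 UMIs. Contrasts used log2(CPM + 10) and exact sign-flip tests over 5 libraries, with Benjamini-Hochberg adjustment over 12. UMIs are counted molecules, and intervals and floors (3 counts) cover counting error only. The scripts were tested on simulated data. Total depth was 1032621 to 7491878 UMIs per library.

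The 6 members are always named, with listed pathway genes that have at least 20 UMIs in classed cells (Lif, with fewer, is named outside that rule; some listed genes are not reported here) and the 3 genes most like each member. The members, markers and lists were chosen with earlier results of these data known, and gate limits from marker counts alone. Alternatives were another gate limit, mixed cells kept, shared barcodes left out, at least 500 genes, Scrublet calls left out, mitochondrial and ribosomal protein genes out of the total, TMM factors (edgeR 4.0.16), a pseudocount of 1 CPM, thinning, leaving out each library, leaving out endothelial-like cells, and at least 50 UMIs per gene for the background shares. Python 3.11.15, scipy 1.17.1, scanpy 1.11.5 and R 4.3.3 were used. Coordinates are from GENCODE vM21.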

Additional observations from a re-analysis of the deposited data

Results flagged for a closer look

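The ratio of non-immune to immune Il6ra differed between libraries by more than counting error. It was 1.26 (95% interval 0.743 to 2.07) in P50_Depil5D and 0.761 (0.414 to 1.44) at P63, both above the 0.292 (0.202 to 0.412) at P45. The myeloid over lymphoid ratio of Il6st was 0.667 (0.312 to 1.36) in P50_Depil5D and 2.81 (1.55 to 5.59) at P45, again with intervals that do not overlap. For P50_Depil5D over P50, the Il6ra ratio in Langerhans cell-like cells, 0.0666, had an interval below those of keratinocyte-like, macrophage-like and dermal dendritic cell-like cells. These differences between libraries or classes were not tested, since each group has 1 library.

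Cells left out of the classes also held receptor UMIs, above the level that 3 counts would give. In mixed cells Osmr was at 14.4, Il6st at 42.8, Lifr at 22.6, Il6ra at 45.6 and Il11ra1 at 96.6 CPM. In cells with no gate Il6st was at 35.0, Lifr at 19.6, Il6ra at 53.9 and Il11ra1 at 13.3 CPM. In tied cells Il6st was at 43.8, Lifr at 32.9 and Il6ra at 121 CPM. Osmr had 40 UMIs in mixed cells, 2 in cells with no gate and none in tied cells.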

How the results depend on the processing

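Of 470 comparisons of a result with an alternative, 459 kept the direction or stayed within the interval. Osmr for myeloid over lymphoid was 0.00 log2 units, and became −0.07 with 1 marker more per gate and −0.33 with mixed cells kept; the same contrast of Il31ra was 0.00 when cells were thinned to 1000 UMIs. For P80 over P45, keratinocyte-like Il6st, Il31ra and Il11ra1 were 0.475, 0 and 0.806 without shared barcodes, and Il11ra1 for P63 over P45 was 1.08. In that setting all 3 Osmr ratios over P45 also had an interval that included 1. With 1 marker more, T cell-like Il6st and dermal dendritic cell-like Il11ra1 were 0, and with at least 500 genes macrophage-like Il6st and Lifr were 0. The cause of these moves was not tested. Keeping the deepest copy of each shared barcode, an alternative chosen after seeing the data, moved no value out of its interval, but the intervals of Osmr for P50 over P45 and Il31ra for P80 over P45 then included 1. Leaving out mitochondrial and ribosomal protein genes raised the CPM of Il6st in endothelial-like cells to 756, of Il6ra in macrophage-like cells to 137 and of Il31ra in keratinocyte-like cells to 12.7. With at least 50 UMIs per gene the background shares for P80 over P45 were 10.7% in T cell-like, 15.5% in dermal dendritic cell-like and 29.4% in macrophage-like cells, and for P50_Depil5D over P50 0.938% in keratinocyte-like, 1.74% in dermal dendritic cell-like and 6.19% in macrophage-like cells. Leaving out endothelial-like cells, also chosen after seeing the data, took Il6st for non-immune over immune to 0.06 log2 units. Without each library in turn, 11 contrasts kept their direction and Osmr, myeloid over lymphoid, stayed at 0.00. No paired analysis between groups was possible because the groups share only replicate number 1. The compartment contrasts were paired within each library. Depth limits the rare members: Il31ra had 37 UMIs, and 39 endothelial-like cells carry the values of that class.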
